A study of Mus musculus with 12 samples.

Results

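The transcription factor p53 and 33 genes known as its targets or partners were examined in mouse liver, as a list of 34 genes. A gene was taken as measured when a probe set of the expression array was annotated with that 1 gene symbol, and where a gene had several such probe sets the one with the highest mean over the 12 arrays was used. By this rule 29 of the 34 genes were measured, among 22180 genes in all. Trp53 itself, Bax, Gdf15, Ddb2 and Gadd45a are not analysed here, so the level of p53 mRNA is not part of the results. Livers came from male mice that were 8 weeks old when the diets began, and each of the 12 arrays held the RNA of 1 of 3 biological replicates per group. The 4 groups were Lats2-CKO mice fed a Paigen diet high in cholesterol (1.25%) for 9 weeks, wild-type mice on the same diet, Lats2-CKO mice on a normal chow without cholesterol, and wild-type mice on that chow. The labels also call the mutant Lats2-KO, and they give neither the strain nor the promoter or cell type in which Lats2 was removed. Values are log2 expression after RMA, a method that corrects background, equalises the arrays and combines the probes of a set, so a difference of 1 is a change of 2-fold. Levels are compared between groups for the same gene and not between genes, whose probe sets differ in brightness.

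In an unstressed liver p53 protein is kept low by the ubiquitin ligase Mdm2 and its partner Mdm4. DNA damage, oncogene activity or metabolic stress frees p53, which then switches on genes for cell-cycle arrest, DNA repair, apoptosis and restraint of growth signalling, together with its own inhibitors Mdm2, Ppm1d and Ccng1. Lats2, a kinase of the Hippo pathway, is known to bind Mdm2 and hold back its action on p53. p53 is regulated mostly through the stability of its protein, so its target mRNAs are the usual readout of its activity. Most of these targets also answer to other signals.

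The sequence element through which p53 acts is a pair of decamers, and stretches around decamers near the start sites are shown. A single decamer is only a part of that element. The p53 consensus decamer, which reads the same on both strands, was searched for without mismatch from 250 bases before to 50 bases after each annotated start in RefSeq (build GRCm38.p6). Start sites were found for 21 of the 29 measured genes. The decamer was present in 8 of these 21 (38.1%) and in 8.7% of the 16986 measured genes with a start site. A pair of decamers separated by at most 13 bases was present in 1 of the 21, Cdkn1a, and in 8 of the 16986. In the lines that follow, each with 30 bases on either side where the window allowed, the decamers are in capitals and the sequence runs 5′ to 3′ on the strand of the gene.
Cdkn1a (chr17:29090876-29090967, plus strand): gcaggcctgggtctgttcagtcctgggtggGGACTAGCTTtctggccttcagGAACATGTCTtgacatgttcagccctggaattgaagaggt
Mdm2 (chr10:117710905-117710974, minus strand): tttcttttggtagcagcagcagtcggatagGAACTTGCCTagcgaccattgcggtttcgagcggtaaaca
Ccng1 (chr11:40755432-40755501, minus strand): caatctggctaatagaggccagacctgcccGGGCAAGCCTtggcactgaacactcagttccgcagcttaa
Ppm1d (chr11:85311092-85311161, plus strand): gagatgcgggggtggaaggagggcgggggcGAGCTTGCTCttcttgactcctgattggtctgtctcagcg
Sesn1 (chr10:41887236-41887305, plus strand): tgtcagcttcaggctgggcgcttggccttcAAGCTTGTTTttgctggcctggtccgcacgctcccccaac
Ei24 (chr9:36797305-36797374, minus strand): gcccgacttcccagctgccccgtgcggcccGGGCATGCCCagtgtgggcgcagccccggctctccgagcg
Cdkn1a has 2 annotated start windows, and its decamers lie in the more upstream one. There the second capitalised decamer is followed directly by another that differs from the consensus at 1 base, and Ccng1 likewise held 20 bases that differ from 2 joined decamers at 1 base. The other genes with a decamer were Aen and Polk. A match is a description of the letters and not a measured binding site, and p53 elements outside these windows were not searched.

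The arrays fell into a higher and a lower set at the widest gap between their medians, with 4 normal-diet and 2 high-cholesterol arrays in the higher set and 2 and 4 in the lower. The sets are a pattern of the values, and no label names them, but they largely follow the replicate numbers. Arrays 1 were all in the higher set and arrays 3 all in the lower one. Arrays 2 were in the higher set on normal diet and in the lower set on the high-cholesterol diet. In the higher set each genotype thus had only array 1 on the high-cholesterol diet. In the lower set each had only array 3 on normal diet. Values within each set, which rest on these single arrays for part of the groups, are given beside many of the results. Wild-type normal-diet array 3 stood apart. Over all genes its mean correlation was 0.981 with the other arrays of its group and 0.987 with wild-type high-cholesterol arrays, so values without it are given beside several results. On the high-cholesterol diet Lats2 itself read 4.62, 4.89 and 4.99 in Lats2-CKO mice, against 5.12, 5.71 and 5.97 in wild-type mice. On normal diet it read 4.37, 4.76 and 4.79 in Lats2-CKO mice, against 5.15, 5.14 and 5.69 in wild-type mice. Each mutant array was thus under every wild-type array, with a difference of -0.72 ± 0.16 (SE, 6 arrays against 6, limma adjusted p = 0.486 over all genes). Where its probe set lies relative to the deleted part is not given in the labels, so the reading does not measure how complete the loss was. The hepatocyte markers, such as albumin, had mean levels of 11.98 to 12.38 on the 12 arrays, as the labelled tissue requires.

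None of the 29 p53 pathway genes changed past an adjusted p of 0.05 in any of the 7 comparisons made with limma, in which all genes were fitted together and p-values adjusted by Benjamini-Hochberg over 22180 genes. The nearest were Apaf1 with diet over both genotypes (adjusted p = 0.0639) and Tnfrsf10b with diet in Lats2-CKO mice (adjusted p = 0.0798). The share of all genes called was small as well, at 1.24% for diet over both genotypes, 0.271% for diet in Lats2-CKO mice and 0% for diet in wild-type mice. For genotype it was 0% on the high-cholesterol diet, 0.0135% on normal diet and 0.00451% over both diets, and for the interaction of genotype and diet 0.00451%. The counts behind these shares rest on single arrays. Diet over both genotypes called 274 genes with all arrays, 1605 without wild-type normal-diet array 3 and 6 without wild-type normal-diet array 2. Without that array 3, diet called 468 genes in Lats2-CKO mice, against 60 with all arrays, and 516 in wild-type mice, against 0. Among the 29 members this moved the count only for diet over both genotypes, to 1 (Apaf1). A count of 0 among 29 genes is therefore near the background in every comparison.

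At an unadjusted p below 0.05 the diet comparisons held 7 of the 29 genes over both genotypes, where 18.0% of all genes did so, 6 in Lats2-CKO mice against a background of 13.4%, and 5 in wild-type mice against 10.6%. These are shares of 24.1%, 20.7% and 17.2%, a little above the background. Genotype gave 2 genes on the high-cholesterol diet (background 2.93%), 2 on normal diet (8.99%) and 3 over both diets (5.97%), and the interaction gave 3 (5.62%). The fitted diet values of the list leaned upward: 21 of 29 were above 0 in Lats2-CKO mice, where 46.4% of all genes were, and 20 of 29 in wild-type mice, where 44.8% were. The median diet difference of the list was 0.17 in Lats2-CKO and 0.11 in wild-type mice, against -0.02 for all genes in each. For genotype the median of the list was -0.06 on the high-cholesterol and -0.05 on the normal diet, with 0.01 and 0.00 for all genes. The diet and genotype comparisons share arrays, so their counts are not separate pieces of evidence.

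**Figure D1:**
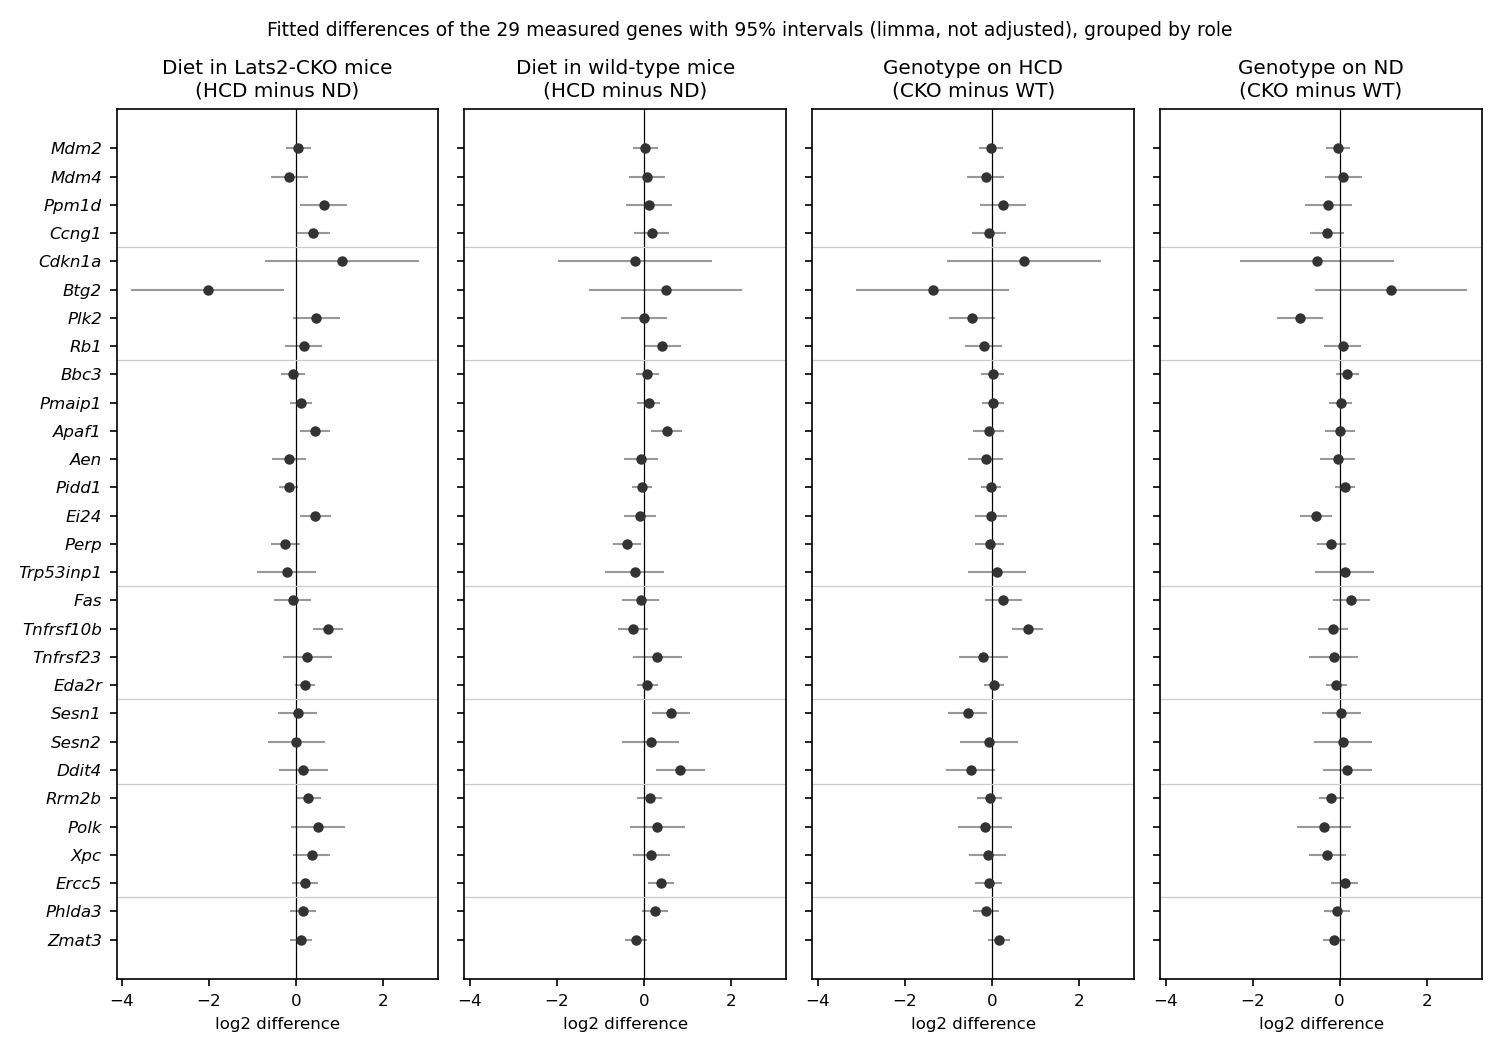
Fitted log2 differences of the 29 measured genes with 95% intervals from limma, 1 panel per comparison, with genes grouped from top to bottom as inhibitors of p53, cell-cycle genes, apoptosis genes, death receptors, mTOR inhibitors, DNA repair genes and others. Tnfrsf10b lies at 0.73 for diet in Lats2-CKO mice and Plk2 at -0.91 for genotype on normal diet, while Cdkn1a and Btg2 have the widest intervals.

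Among the inhibitors of p53, Mdm2 and Mdm4 had differences near 0. Mdm2, the ligase that marks p53 for destruction and is itself a p53 target, read 6.78, 7.09 and 7.24 on Lats2-CKO high-cholesterol arrays, 7.10, 7.02 and 7.05 on the wild-type arrays of that diet, 7.05, 6.81 and 7.11 on Lats2-CKO normal-diet arrays, and 7.16, 6.91 and 7.01 on wild-type normal-diet arrays. The 4 groups overlapped throughout. Its fitted difference was 0.04 for diet over both genotypes (95% interval -0.16 to 0.24) and -0.03 for genotype over both diets (-0.23 to 0.17), so a change of Mdm2 mRNA by more than about 0.24 lies outside both intervals. Mdm4, which blocks the activating domain of p53, ran from 6.58 to 7.43, with a fitted genotype difference of -0.03 (-0.32 to 0.27). Ppm1d, a phosphatase that switches off the damage signal to p53, read 6.36, 6.37 and 6.45 on Lats2-CKO high-cholesterol arrays, against 5.70, 5.32 and 6.25 on Lats2-CKO normal-diet arrays. These groups did not overlap, yet the difference of 0.63 ± 0.24 did not pass (SE, n = 3 each, limma adjusted p = 0.279). The array sets gave 0.85 (higher set) and 0.15 (lower set). On the lower-set arrays of normal diet Ppm1d was high in both genotypes, at 6.25 in the Lats2-CKO and 6.47 in the wild-type mouse. Ccng1, a cyclin that helps Mdm2, read 9.76, 9.81 and 9.65 on Lats2-CKO high-cholesterol arrays, against 9.54, 9.03 and 9.46 on Lats2-CKO normal-diet arrays, with a difference of 0.40 ± 0.18 (SE, n = 3 each, limma adjusted p = 0.362). Wild-type high-cholesterol arrays gave 10.22, 9.55 and 9.62, the first being the highest Ccng1 value of all arrays. Wild-type mice on normal diet had 9.63, 9.67 and 9.57, all above the Lats2-CKO normal-diet values, with a genotype difference of -0.28 ± 0.18 (adjusted p = 0.711 by limma). The array sets gave 0.48 (higher set) and 0.27 (lower set) for the diet difference of Ccng1 and -0.37 and -0.11 for its genotype difference. Without Lats2-CKO normal-diet array 2, which held the lowest value, the Ccng1 difference was 0.24 for diet and -0.12 for genotype, and that of Ppm1d 0.41. It was 0.88 without array 3.

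The cell-cycle genes Cdkn1a and Btg2 varied the most of the 29 genes between mice of the same group. Cdkn1a encodes p21, an inhibitor of cyclin-dependent kinases and the best known p53 target. It read 7.29, 7.56 and 7.41 on Lats2-CKO high-cholesterol arrays, 7.66, 5.12 and 7.29 on the wild-type arrays of that diet, 4.41, 7.41 and 7.31 on Lats2-CKO normal-diet arrays, and 6.83, 7.60 and 6.25 on wild-type normal-diet arrays. Single arrays, wild-type high-cholesterol 2 and Lats2-CKO normal-diet 1, were thus far below the others, and no pair of groups was separate. The within-group SD of Cdkn1a was 1.15, at percentile 99.7 of all genes. The fitted diet difference in Lats2-CKO mice was 1.05 ± 0.80 (SE, n = 3 each, limma adjusted p = 0.63) and was 0.06 without Lats2-CKO normal-diet array 1, with 1.38 in the higher array set and 0.18 in the lower one. In wild-type mice it was -0.20 ± 0.80 (limma adjusted p = 0.958), and 0.58 without wild-type high-cholesterol array 2. Leaving out wild-type normal-diet array 3 gave -0.53. The 95% interval in Lats2-CKO mice ran from -0.72 to 2.82, so these arrays could not show a p21 change of the sizes seen between single mice. The 2 arrays with the lowest Cdkn1a also held the 2 lowest readings of Trp53inp1, a stress protein that promotes p53 activity and autophagy, at 8.58 and 8.64, against 9.02 to 9.98 on the other 10.

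**Figure D2:**
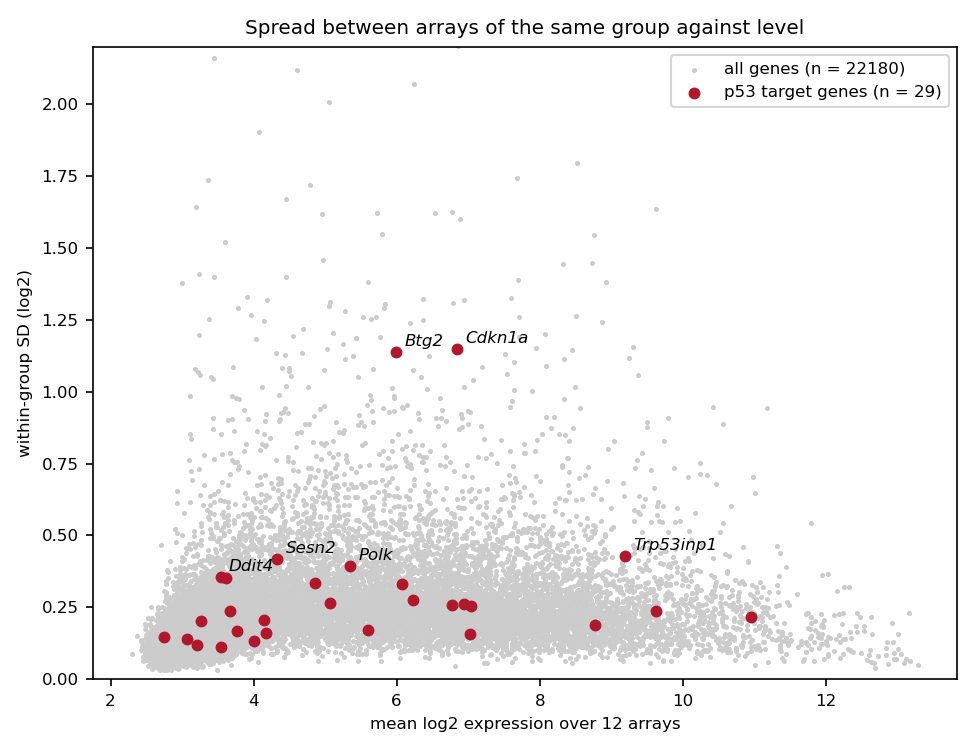
Within-group SD of each gene over the 12 arrays against its mean log2 expression, with the 29 measured genes of the p53 list in red and all 22180 genes in grey; 2 genes above 2.2 are not drawn. Cdkn1a (1.15) and Btg2 (1.14) lie far above the other members, the next being Trp53inp1 at 0.43.

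Btg2, an antiproliferative gene that p53 and growth signals both induce within minutes to hours, had 4.20, 5.45 and 5.17 on Lats2-CKO high-cholesterol arrays and 6.27, 7.29 and 5.31 on the wild-type arrays of that diet. It had 6.24, 8.77 and 5.90 on Lats2-CKO normal-diet arrays and 6.14, 6.72 and 4.51 on wild-type normal-diet arrays. In Lats2-CKO mice the high-cholesterol values all lay below the normal-diet values, while wild-type values overlapped. The diet difference was -2.03 ± 0.80 in Lats2-CKO mice (limma adjusted p = 0.294), -3.31 in the higher array set and -0.60 in the lower one. The interaction was -2.53 ± 1.13 (limma adjusted p = 0.888). Without Lats2-CKO normal-diet array 2 these were -1.13 and -1.63.

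Plk2, a polo-like kinase induced by p53 and by growth stimuli, had the lowest genotype p on normal diet. It read 4.23, 4.30 and 4.33 on Lats2-CKO normal-diet arrays, against 5.05, 5.01 and 5.53 on wild-type normal-diet arrays. The groups did not overlap, and the difference was -0.91 ± 0.24 (SE, n = 3 each), or 0.531-fold, with a limma adjusted p of 0.262. The difference was -0.77 in the higher array set, -1.20 in the lower one and -0.75 without wild-type normal-diet array 3. On the high-cholesterol diet Lats2-CKO arrays gave 4.25, 4.60 and 5.39, against 5.34, 5.24 and 5.02 in wild-type mice, where array 3 of the mutant lay above all wild-type values. Over both diets the genotype difference was -0.68 ± 0.17 (SE, 6 arrays against 6, adjusted p = 0.566 by limma). Groups that did not overlap on normal diet numbered 3 lower members, Plk2, Ei24 and Ccng1, and 1 higher, Bbc3, where 7.36% and 5.96% of all genes did so. Rb1, the retinoblastoma protein that p21 keeps active, ran from 6.40 to 7.32, and its normal-diet arrays 3 (7.15 in Lats2-CKO, 7.16 in wild type) read like those of the high-cholesterol groups.

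**Figure D3:**
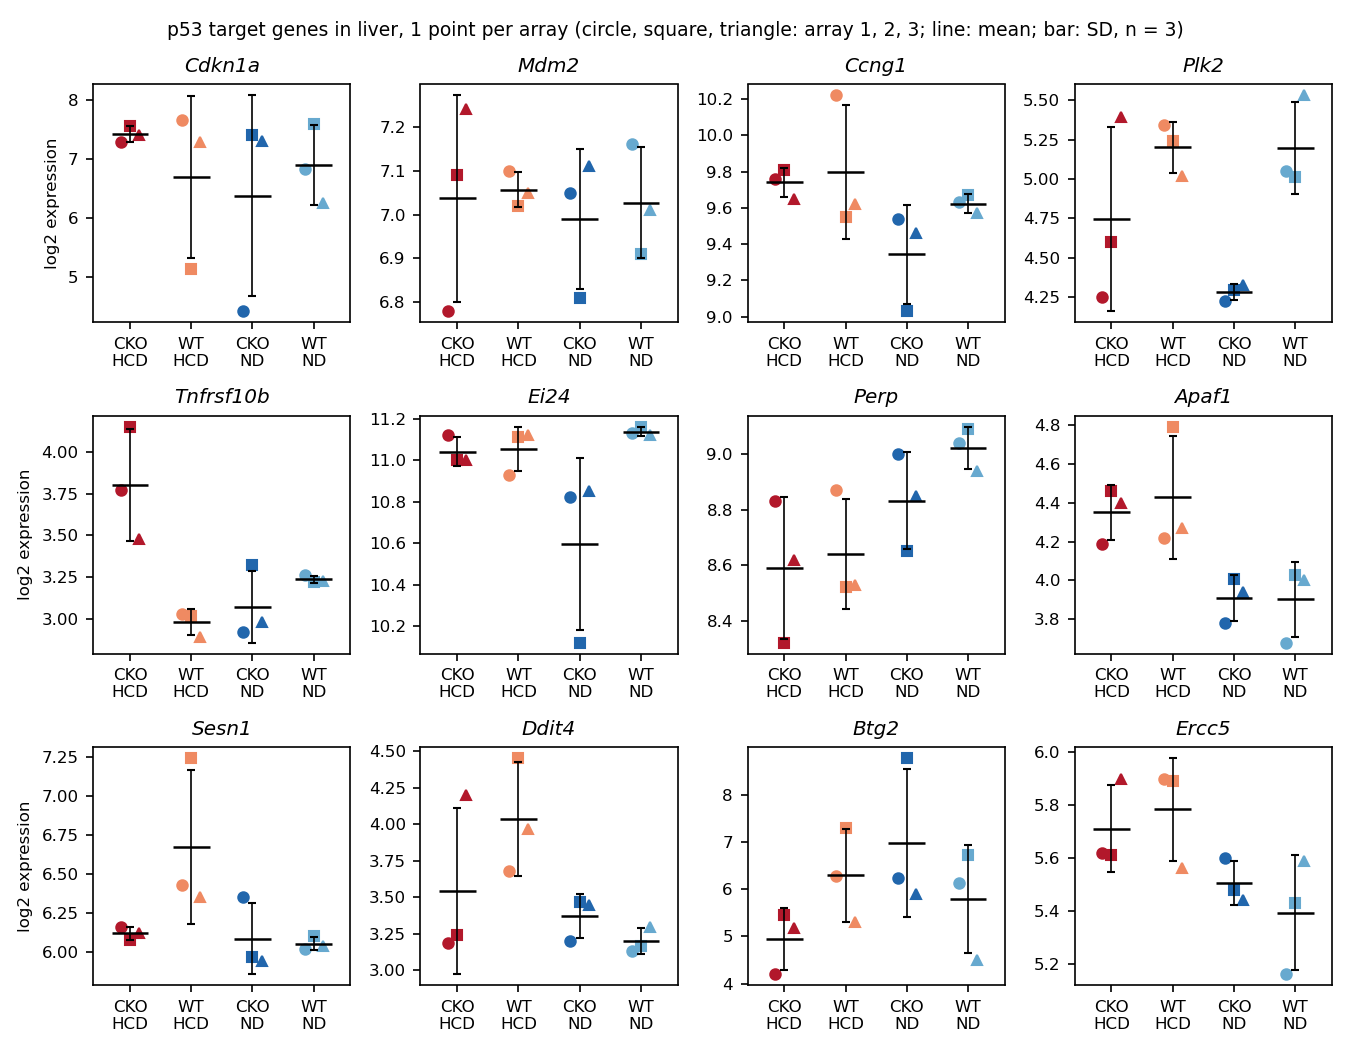
Log2 expression of 12 genes of the p53 list on each array (circle, square and triangle are arrays 1, 2 and 3), with the group mean and SD (n = 3), for Lats2-CKO (CKO) and wild-type (WT) mice on high-cholesterol (HCD) and normal diet (ND). Each panel has its own scale that does not start at 0. Apaf1 is above its normal-diet values on all 6 high-cholesterol arrays, Tnfrsf10b is highest on the 3 Lats2-CKO high-cholesterol arrays, and Plk2 is low on the 3 Lats2-CKO normal-diet arrays.

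Apaf1, the scaffold of the apoptosome on which caspase-9 is activated, was the member with the smallest p for diet over both genotypes. It read 4.19, 4.46 and 4.40 on Lats2-CKO high-cholesterol arrays and 4.22, 4.79 and 4.27 on the wild-type arrays of that diet, against 3.78, 4.01 and 3.94 on Lats2-CKO normal-diet arrays and 3.68, 4.03 and 4.0 on wild-type normal-diet arrays. All 6 high-cholesterol values lay above all 6 normal-diet values. That was so, upward, for 1 of the 29 genes and for 0.379% of all genes, and downward for 0 of the 29 and 0.974% of all. The difference was 0.48 ± 0.11 (SE, 6 arrays against 6, limma adjusted p = 0.0639), a 1.39-fold change, and it passed without wild-type normal-diet array 3 at 0.50 with a limma adjusted p of 0.037. With the array set as a block it did not pass, at a limma adjusted p of 0.113 with all arrays and 0.124 without that array. The Apaf1 difference was 0.39 to 0.53 as arrays were left out in turn, with a limma adjusted p of up to 0.169. The array sets gave 0.33 (higher set) and 0.51 (lower set). By genotype it was 0.44 ± 0.16 in Lats2-CKO and 0.52 ± 0.16 in wild-type mice (limma adjusted p = 0.256 and 0.331), the second being 0.34 without wild-type high-cholesterol array 2. Genotype over both diets gave -0.03 with a 95% interval of -0.28 to 0.22.

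For diet over both genotypes all 12 listed markers of macrophages and Kupffer cells had a fitted difference above 0, with a median of 0.97. Of these, 3 passed the threshold (C1qb, Cd5l and Clec4f), where 1.24% of all genes passed in either direction. An unadjusted p below 0.05 was held by 9, where 18.0% of all genes had one. With the array set as a block these 3 genes had a limma adjusted p of 0.067 to 0.0851. The mean level of all 12 markers was 6.59 to 7.13 on Lats2-CKO high-cholesterol arrays and 6.97 to 8.45 on the wild-type arrays of that diet, against 5.91 to 6.23 on Lats2-CKO normal-diet arrays and 6.54 to 6.87 on wild-type normal-diet arrays. B cell markers reached 6.04 on wild-type high-cholesterol array 2, against 3.53 to 4.43 on the other arrays. That array also held the highest of the 12 values for 7 of the 29 genes, namely Sesn1, Phlda3, Ddit4, Rrm2b, Xpc, Apaf1 and Rb1, which is 24.1% of them, while 8.43% of all genes peaked there. The part of these cells in the results was not tested, and in whole liver fewer cells of a type and less RNA per cell cannot be told apart. For genotype, the same macrophage markers had medians of -0.78 on the high-cholesterol and -0.64 on the normal diet, and the 7 endothelial markers -0.49 and -0.50, with 0 genes past the threshold in either list.

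Of the other apoptosis genes, Ei24 and Perp had bright probe sets, at means of 10.96 and 8.77, which do not measure abundance. Ei24, a protein of the endoplasmic reticulum that p53 induces, read 10.82, 10.12 and 10.85 on Lats2-CKO normal-diet arrays, against 11.13, 11.16 and 11.12 on wild-type normal-diet arrays. It read 11.12, 11.00 and 11.00 on Lats2-CKO high-cholesterol arrays and 10.93, 11.11 and 11.12 on the wild-type arrays of that diet. The Lats2-CKO normal-diet group thus lay apart from the other 3, which were within 0.23 of each other. Its difference was -0.54 ± 0.16 for genotype on normal diet and 0.44 ± 0.16 for diet in Lats2-CKO mice (SE, n = 3 each, limma adjusted p = 0.3 and 0.264). These were -0.68 and 0.65 in the higher array set and -0.27 and 0.15 in the lower one. Without Lats2-CKO normal-diet array 2 the values were -0.31 and 0.21. The genotype difference over both diets, -0.28 ± 0.12 (limma adjusted p = 0.83), was -0.16 without that array. On the high-cholesterol diet the genotype difference of Ei24 was -0.01, with a 95% interval of -0.38 to 0.35.

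Perp, a membrane protein of desmosomes that takes part in p53-driven apoptosis, read 8.83, 8.32 and 8.62 on Lats2-CKO high-cholesterol arrays and 8.87, 8.52 and 8.53 on the wild-type arrays of that diet, against 9.00, 8.65 and 8.85 on Lats2-CKO normal-diet arrays and 9.04, 9.09 and 8.94 on wild-type normal-diet arrays. It was the 1 member with an unadjusted p below 0.05 and a lower value on the high-cholesterol diet over both genotypes, where 10.4% of all genes were lower by that measure, while 6 members were higher, where 7.56% of all genes were. Its difference was -0.32 ± 0.11 (SE, 6 arrays against 6, limma adjusted p = 0.15), -0.10 in the higher array set and -0.40 in the lower one. In wild-type mice the groups did not overlap, as for 3 lower members in all (Perp, Tnfrsf10b and Ei24, where 8.81% of all genes were lower) and 3 higher ones (Apaf1, Ddit4 and Sesn1, where 4.97% were higher). The classical p53 killers Bbc3 (PUMA) and Pmaip1 (NOXA), which neutralise protectors of the Bcl2 family, were dim, at 2.52 to 2.98 and 2.90 to 3.39 over the 12 arrays. The 30th percentile of all values was 3.04, so these readings say little on whether the genes were transcribed. Aen, a nuclease of apoptotic cells, ran from 3.29 to 4.10, and Pidd1, which assembles a caspase-2 platform, from 3.39 to 3.84, with groups that overlapped in the genotype comparisons.

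Tnfrsf10b, the mouse receptor of the death ligand TRAIL, stood out among the death receptors. It read 3.77, 4.15 and 3.48 on Lats2-CKO high-cholesterol arrays, 3.03, 3.02 and 2.89 on the wild-type arrays of that diet, 2.92, 3.32 and 2.98 on Lats2-CKO normal-diet arrays, and 3.26, 3.22 and 3.23 on wild-type normal-diet arrays. The mutant high-cholesterol values lay above the other 9, which were close to the dim end of the array. The difference was 0.73 ± 0.16 for diet in Lats2-CKO mice (SE, n = 3 each, limma adjusted p = 0.0798) and 0.82 ± 0.16 for genotype on the high-cholesterol diet (limma adjusted p = 1, unadjusted p = 0.000284). No gene passed in the second comparison, where only 2.93% had an unadjusted p below 0.05. The diet value had a limma adjusted p of 0.0525 without wild-type normal-diet array 3 and of 0.103 with the array set as a block. It was 0.55 to 0.89 as arrays were left out in turn, with a limma adjusted p of up to 0.188. Within the array sets, where some groups held a single array, the diet value was 0.65 and 0.84 and the genotype value 0.74 and 0.86 (higher set first). The genotype difference over both diets was 0.33 ± 0.11 (limma adjusted p = 0.759). In Lats2-CKO mice 8 members were separate and higher on the high-cholesterol diet (Tnfrsf10b, Apaf1, Ei24, Ppm1d, Ccng1, Eda2r, Ercc5 and Phlda3) and 1, Btg2, separate and lower, where 8.98% and 10.5% of all genes were. Tnfrsf10b and Ei24 were separate in wild-type mice too, in the opposite direction. Opposite and separate diet changes, whichever genotype was the one that rose, held for 2 of the 29 genes and for 0.419% of all genes. For Ei24 in wild-type mice the gap between the groups was 0.0031, too small to show in the rounded values. Gaps of less than 0.01 were also those of Eda2r (0.0036) and Ercc5 (0.0048) with diet in Lats2-CKO mice. Between genotypes on that diet Tnfrsf10b and Ppm1d were separate and higher and Sesn1 separate and lower, where 4.07% and 3.37% of all genes were.

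Fas, the receptor of Fas ligand through which hepatocytes are readily killed, read 6.69, 7.25 and 6.64 on Lats2-CKO high-cholesterol arrays, 6.76, 6.29 and 6.76 on the wild-type arrays of that diet, 6.88, 7.22 and 6.72 on Lats2-CKO normal-diet arrays, and 6.57, 6.77 and 6.68 on wild-type normal-diet arrays. The genotypes overlapped on each diet. The decoy TRAIL receptor Tnfrsf23 ran from 3.15 to 4.18, with its highest value on wild-type normal-diet array 3, and Eda2r, a receptor of ectodysplasin, from 3.01 to 3.39.

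Sesn1, Sesn2 and Ddit4 restrain the growth kinase mTORC1. Sesn1, a sestrin that p53 induces, read 6.16, 6.08 and 6.12 on Lats2-CKO high-cholesterol arrays, 6.43, 7.24 and 6.35 on the wild-type arrays of that diet, 6.35, 5.97 and 5.94 on Lats2-CKO normal-diet arrays, and 6.02, 6.10 and 6.04 on wild-type normal-diet arrays. The wild-type high-cholesterol arrays were thus at or above all others, most of all array 2. Its difference was 0.62 ± 0.20 for diet in wild-type mice (limma adjusted p = 0.346) and -0.55 ± 0.20 for genotype on the high-cholesterol diet (limma adjusted p = 1). Without wild-type high-cholesterol array 2 these were 0.34 and -0.27, and within the sets 0.38 and -0.27 (higher set) and 0.76 and -0.69 (lower set). The diet difference in Lats2-CKO mice was 0.03, with a 95% interval of -0.41 to 0.48, and the interaction was -0.59 ± 0.29 (limma adjusted p = 0.911), so a genotype-specific diet response of Sesn1 did not pass.

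Ddit4, a stress-induced mTORC1 inhibitor that glucocorticoids and hypoxia also raise, read 3.19, 3.24 and 4.20 on Lats2-CKO high-cholesterol arrays and 3.68, 4.45 and 3.97 on the wild-type arrays of that diet. It read 3.20, 3.47 and 3.45 on Lats2-CKO normal-diet arrays and 3.13, 3.17 and 3.30 on wild-type normal-diet arrays. In wild-type mice the diets did not overlap (0.83 ± 0.26, 1.78-fold, limma adjusted p = 0.336), with 0.53 in the higher array set and 0.91 in the lower one. The genotype difference on the high-cholesterol diet was -0.49 ± 0.26 (limma adjusted p = 1), which ran from -0.82 without Lats2-CKO array 3 to -0.31 without Lats2-CKO array 1 and -0.28 without wild-type array 2. Sesn2, a sestrin that the stress factor ATF4 also drives, ran from 3.85 to 4.96, both ends being wild-type normal-diet arrays.

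Ercc5, a DNA repair gene and the nuclease that cuts 3′ of a lesion in nucleotide excision repair, read 5.62, 5.61 and 5.90 on Lats2-CKO high-cholesterol arrays and 5.90, 5.89 and 5.56 on the wild-type arrays of that diet, against 5.60, 5.48 and 5.44 on Lats2-CKO normal-diet arrays and 5.16, 5.43 and 5.59 on wild-type normal-diet arrays. Its diet difference over both genotypes was 0.30 ± 0.10 (SE, 6 arrays against 6, limma adjusted p = 0.147), with overlapping groups, and 0.35 without wild-type normal-diet array 3 (limma adjusted p = 0.0617). It fell to as little as 0.24, and its limma adjusted p reached 0.316, as arrays were left out in turn. Rrm2b, the p53-inducible subunit of ribonucleotide reductase, ran from 3.81 to 4.50, and Xpc, which recognises lesions, from 4.69 to 5.66. The translesion polymerase Polk ran from 4.80 to 5.93. Of the remaining genes, Phlda3, which competes with Akt for the membrane, ran from 3.50 to 4.24 and Zmat3, an RNA-binding regulator of splicing, from 3.82 to 4.26. Lats2-CKO normal-diet array 2 held the lowest of the 12 values for Ccng1, Phlda3, Ei24, Rrm2b and Ppm1d and the highest for Btg2 and Trp53inp1. The lowest of the 12 values lay on that array for 17.2% of the members and 12% of all genes, on Lats2-CKO normal-diet array 1 for 20.7% and 7.58%, and on wild-type normal-diet array 1 for 17.2% and 8.6%.

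Other genes around p53 were read in 4 further lists, in which 0 genes passed the threshold in any of the 7 comparisons with limma. Among 22 regulators of p53, 6 had an unadjusted p below 0.05 for diet in Lats2-CKO mice, against 13.4% of all genes. Diet gave 4 in wild-type mice (background 10.6%) and 4 over both genotypes (18.0%). Genotype gave 4 on normal diet (8.99%), 2 on the high-cholesterol diet (2.93%) and 2 over both diets (5.97%). The interaction gave 3 (5.62%). Hipk2, a kinase that phosphorylates p53 and promotes apoptosis, read 7.96, 7.28 and 7.54 on Lats2-CKO normal-diet arrays, against 8.26, 8.11 and 8.18 on wild-type normal-diet arrays, a difference of -0.59 ± 0.14 (limma adjusted p = 0.236) that passed at -0.77 (limma adjusted p = 0.0455) without Lats2-CKO normal-diet array 1. This difference shrank to as little as -0.43, and its limma adjusted p reached 0.538, as arrays were left out in turn. Among 25 measured further p53 targets the median diet difference was 0.20 in Lats2-CKO and 0.02 in wild-type mice. Bcl6, a transcriptional repressor, read 5.34, 5.41 and 5.85 on Lats2-CKO normal-diet arrays, against 8.56, 8.50 and 7.82 on wild-type normal-diet arrays. The groups were far apart and the difference was -2.76 ± 0.53 (limma adjusted p = 0.153), which passed without wild-type high-cholesterol array 2 (limma adjusted p = 0.0248), an array that enters only through the shared spread. The Bcl6 difference was -3.00 to -2.63 as arrays were left out in turn, with a limma adjusted p of up to 0.394. Pltp, a phospholipid transfer protein that sterol-sensing receptors also induce, had a diet difference of 0.90 ± 0.20 over both genotypes (limma adjusted p = 0.0575), with 7.53, 7.11 and 7.77 on Lats2-CKO and 8.54, 9.37 and 8.00 on wild-type arrays of the high-cholesterol diet, against 7.0, 6.76 and 6.76 on Lats2-CKO and 7.51, 7.34 and 7.55 on wild-type normal-diet arrays. It passed without wild-type normal-diet array 3 (0.92, limma adjusted p = 0.0348) and without wild-type high-cholesterol array 3 (1.06, limma adjusted p = 0.0223), and not with the array set as a block (limma adjusted p = 0.101). The Pltp difference fell to as little as 0.72, and its limma adjusted p reached 0.151, as arrays were left out in turn.

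The 17 measured cell-cycle genes that p53 represses through p21 had a median diet difference of 0.19 in Lats2-CKO mice and -0.01 in wild-type mice. The proliferation marker Mki67 read 3.92, 4.73 and 3.71 on Lats2-CKO high-cholesterol arrays, against 3.78, 3.66 and 3.38 on Lats2-CKO normal-diet arrays (0.51 ± 0.21, limma adjusted p = 0.328, 0.21 without Lats2-CKO high-cholesterol array 2, and 0.20 and 0.84 in the higher and lower array set). The checkpoint kinase gene Chek1 had a diet difference of -0.27 ± 0.10 over both genotypes (limma adjusted p = 0.186), with -0.42 in the higher array set and -0.05 in the lower one. The list's mean level was 3.35 to 3.64 on Lats2-CKO and 3.29 to 3.41 on wild-type arrays of the high-cholesterol diet, against 3.36 to 3.50 on Lats2-CKO and 3.31 to 3.49 on wild-type normal-diet arrays, so all groups overlapped near the dim end of the array. Of the 17 measured genes of the ATF4 stress response, which shares Sesn2 and Ddit4 with the p53 list, Ddit3 (CHOP), a factor of unresolved endoplasmic reticulum stress, had a diet difference of -1.25 ± 0.32 over both genotypes (limma adjusted p = 0.0789). It passed without wild-type normal-diet array 3, at -1.51 with a limma adjusted p of 0.00672. The Ddit3 difference was -1.51 to -1.05 as arrays were left out in turn, with a limma adjusted p of up to 0.201. The array sets gave -1.74 (higher set) and -0.39 (lower set), and with the set as a block the limma adjusted p was 0.136. Ppp1r15a, which restores translation after stress, had 4.91, 4.70 and 4.47 on Lats2-CKO high-cholesterol arrays, against 4.33, 4.14 and 3.50 on Lats2-CKO normal-diet arrays (0.70 ± 0.19, limma adjusted p = 0.14, and 0.45 without Lats2-CKO normal-diet array 3).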

How the data were processed

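Total RNA of 12 mouse livers was labelled after a whole-transcript amplification and hybridised to Affymetrix arrays, per the labels' protocols. The authors deposited log2 expression per probe set, and per the submitters' processing notes RMA was run in Partek 6.6. The log2 scale was read from the values (1.94 to 14.2), settings and genome build are not given in the sources used here, and scanner files were not used here. Of 41345 probe sets, 23521 named 1 gene, which gave 22180 genes, and 29 of the 34 listed genes were among them. Limma 3.58.1 in R 4.3.3 (lmFit, eBayes) fitted 4 group means over all 12 arrays without a block, since nothing in the labels pairs mice. Adjustment was by Benjamini-Hochberg over the 22180 genes. On simulated data with 100 genes changed by 1 on the log2 scale for diet in Lats2-CKO mice, 72 were recovered among 22180 genes. Another 100 genes were changed by 2, of which 97 were recovered, with 9 false calls. Recovery of changes smaller than 1, or on the measured arrays, was not tested.

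The listed genes, further lists and tests were chosen with earlier results of these data known. Values on every array are given for Cdkn1a, Mdm2 and the 3 members with the smallest p in each comparison, and for others where a statement rests on them, chosen after their values were seen. Alternatives were a fit on the groups compared, the replicate number or array set as a block, another prior, array weights, a filter at the 30th percentile, the mean of probe sets, 2 normalisations and each array left out. A fit with the array set as a block that also left out array 3 of the wild-type normal-diet group was added after seeing the data. Nothing says that tissues were prepared separately beyond the term biological replicate. The limma p-values rest on the spread between the 3 mice within a group, pooled over the 4 groups and moderated by the spread of all genes.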

Additional observations from a re-analysis of the deposited data

Results flagged for a closer look

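For 2 of the 29 genes, Tnfrsf10b and Ei24, every high-cholesterol array lay above every normal-diet array in Lats2-CKO mice and below every normal-diet array in wild-type mice. Separate diet groups of opposite direction in the genotypes, whichever genotype was the one that rose, were found for 0.419% of all genes. For Ei24 in wild-type mice the groups were only 0.0031 apart. The diet difference in Lats2-CKO mice minus that in wild-type mice was 0.98 ± 0.22 for Tnfrsf10b (SE, limma adjusted p = 0.71) and 0.53 ± 0.23 for Ei24 (limma adjusted p = 0.888), so neither passed over all genes. For Tnfrsf10b it was 0.86 within the higher and 1.11 within the lower array set, and 0.81 to 1.14 as each array was left out in turn. For Ei24 it was 0.87 and 0.16 within the sets, and 0.29 without Lats2-CKO normal-diet array 2. The wild-type diet difference of Ei24 was -0.09 with a 95% interval of -0.45 to 0.28.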

How the results depend on the processing

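The number of members past the threshold stayed at 0 under all 22 alternatives in 6 of the 7 comparisons. For diet over both genotypes it was 0 to 1 as arrays were left out in turn (Apaf1, without wild-type normal-diet array 3), 1 with the replicate number as a block (Apaf1, limma adjusted p = 0.0364) and 2 with array weights (Apaf1 at 0.0252 and Perp at 0.0396). With the array set as a block Apaf1 did not pass (limma adjusted p = 0.113, and 0.124 without that array). The replicate numbers were not taken as pairs, since 7 of 18 same-numbered pairs deviated together at a correlation over 0.1 (0.00 to 0.18 over the 18). As a hint from the data, 25 of 36 best matches between arrays of different groups were to the same number, where chance gives 12, and the block changed no other count of members. The array sets largely follow the replicate numbers, so a match by number can also be a match by set. Of the 792 values recomputed for 36 gene results, 767 kept their direction and side of the threshold. Many of these could not turn direction. Another prior, the replicate block or leaving out an array of a group not compared keeps the fitted difference. None of the 36 passed in the main fit, so keeping the side of the threshold meant not passing. The count is therefore not a measure of how firm the results are. Direction turned for Cdkn1a with diet in wild-type mice (-0.69 to 0.58 as arrays were left out) and for Mdm2, whose values were near 0. Mdm2 ran from -0.01 to 0.11 for diet and from -0.08 to 0.04 for genotype as arrays were left out, and was -0.05 for diet with the array set as a block and without wild-type normal-diet array 3, and 0.02 for genotype with array weights and with quantile normalisation. The cause of these shifts was not tested. With 3 arrays per group and no scanner files, dim members such as Bbc3, Pmaip1 and Tnfrsf10b cannot be placed against background.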

Other observations

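Some genes outside the lists, chosen after their values were seen, had their extremes on the same arrays as members of the list. Egr1, an immediate early transcription factor induced by the same growth signals as Btg2, read 3.31, 3.69 and 3.13 on Lats2-CKO high-cholesterol arrays and 3.50, 6.74 and 3.63 on wild-type high-cholesterol arrays, with 6.6, 7.26 and 3.89 on Lats2-CKO normal-diet arrays and 5.92, 7.07 and 2.68 on wild-type normal-diet arrays. Both Btg2 and Egr1 were highest on Lats2-CKO normal-diet array 2. Wee1, a mitotic kinase gene under clock control in liver, was highest on the 2 arrays where Cdkn1a was lowest, at 7.57 on wild-type high-cholesterol array 2 and 7.43 on Lats2-CKO normal-diet array 1, against 5.47 to 6.92 on the other 10. Gadd45b, a stress gene of the liver, was lowest on these 2 arrays, at 4.68 and 4.24, against 5.62 to 7.37 elsewhere. Cxcl10, a chemokine that interferon induces, read 7.66 on Lats2-CKO high-cholesterol array 2, which held the highest Tnfrsf10b value, and 3.05 to 3.77 on the other 11. The times of feeding and of tissue collection are not given in the labels used here.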
